A study of Mus musculus with 6 samples.

Results

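The interferon-stimulated genes described here are a set of 45 named genes, matched by symbol to the gene list of a single-cell RNA-Seq study of melanoma tumors in mice. Of these, 43 were among the 32285 genes of that list, and Mx1 and Mx2 were not among the genes of the list used here. The 43 genes held 1196454 of 416282296 UMIs, or 0.287% (a UMI is a molecular tag that marks 1 captured RNA molecule). All cells came from female C57BL/6 mice, aged 6 to 10 weeks, that carried B16-F10 tumors, grown from a mouse melanoma cell line. All 6 samples received αPD-1, an antibody against the T cell checkpoint receptor PD-1, at 150 µg per mouse 3 times per week from day 7 after the graft. The 3 αPD-1 + corin samples came from mice that also received corin, an inhibitor of the CoREST complex, at 200 µg per mouse by daily intraperitoneal injection from day 6, whereas the labels name a DMSO/PBS vehicle as the control injection. Tumors were dissociated, frozen and thawed, and CD45+ cells were isolated on magnetic beads. The labels give 10 mice per treatment group but not which mice gave the samples, so that the p-values below measure the spread between samples that may or may not be separate animals.

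Interferons are secreted proteins that warn cells of infection and damage. Type I interferons signal through a complex that holds STAT2 and IRF9, and type II interferon (IFN-γ, made mainly by T and NK cells) signals through a receptor of its own. The genes switched on by these factors encode sensors and effectors that restrict viruses and intracellular microbes, and in tumors they are widely used as a readout of interferon signaling. Some of them, such as the Ifit and OAS families, are classic targets of type I interferon, while the guanylate-binding proteins (GBPs) and immunity-related GTPases (IRGs) respond strongly to IFN-γ.

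The DNA letters that these factors are known to bind were looked up in the promoters of the set, taken from RefSeq on build GRCm38.p6 and covering 250 bases before to 50 bases after each start site. An entry was found for 34 of the 43 genes. The motif GAAA-NN-GAAA (GAAA, any 2 bases, GAAA), searched on both strands and so also read as TTTC-NN-TTTC, is the core of the interferon-stimulated response element and was found in 21 of these 34 genes (61.8%), against 1079 of the 27025 genes with an entry (3.99%). The gamma-activated sequence TTCNNNGAA, searched the same way, was found in 8 of 34 (23.5%), against 2582 of 27025 (9.55%). A match is a description of the letters and does not show that a factor was bound. The windows below are shown because the genes behind them take different courses in the T cells described further on: the first 5 fell, Gbp3 rose, and Gbp2, Bst2 and Igtp did not pass the test. Capitals mark the motif letters and every window lies before the start site of its gene. In Bst2 the letters of both motifs overlap, and in Bst2, Gbp3, Irgm1 and Isg15 copies of GAAA-NN-GAAA overlap each other.
Isg15, chr4:156200855-156200916, minus strand: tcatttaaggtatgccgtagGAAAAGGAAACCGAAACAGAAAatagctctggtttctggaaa
Ifit1, chr19:34640765-34640833, plus strand: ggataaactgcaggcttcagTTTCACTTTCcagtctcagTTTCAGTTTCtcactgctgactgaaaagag
Ifit3, chr19:34583353-34583436, plus strand: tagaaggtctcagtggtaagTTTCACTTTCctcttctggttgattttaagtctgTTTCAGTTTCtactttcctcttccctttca
Slfn5, chr11:82951927-82951976, plus strand: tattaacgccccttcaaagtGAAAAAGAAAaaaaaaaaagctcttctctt
Irgm1, chr11:48871421-48871470, minus strand: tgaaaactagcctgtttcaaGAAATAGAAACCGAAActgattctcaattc
Gbp3, chr3:142559979-142560034, plus strand: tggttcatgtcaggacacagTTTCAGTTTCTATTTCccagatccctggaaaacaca
Gbp2, chr3:142620584-142620633, plus strand: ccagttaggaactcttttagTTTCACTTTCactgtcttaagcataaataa
Bst2, chr8:71537567-71537628, minus strand: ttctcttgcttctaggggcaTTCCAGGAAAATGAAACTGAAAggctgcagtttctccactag
Igtp, chr11:58199491-58199551, plus strand: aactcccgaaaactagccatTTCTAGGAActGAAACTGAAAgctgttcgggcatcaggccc
The window of Ifit3b, at chr19:34607749-34607832, holds the same letters as that of Ifit3. Ifit3 and Ifit3b are near-identical copies, and how their reads were divided is uncertain.

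The 6 libraries held 52281422 to 84276739 UMIs each, and 25049 cells were assigned to melanoma, fibroblast, T, NK, B, macrophage, monocyte, neutrophil and dendritic cell (DC) lineages from marker genes. Ptprc, which encodes CD45, was detected in 4.93% of cells called melanoma and in 9.03% of those called fibroblast, against 72.2% to 98.7% of the cells of each immune lineage, so that the first 2 lineages went against the CD45+ label. UMIs were summed per sample and lineage and expressed as CPM, the UMIs of a gene per 1000000 UMIs of the sample's cells of that lineage, after scaling of library sizes separately within each lineage. Pairs of libraries shared 1 to 15 cell barcodes among the cells kept. αPD-1 + corin replicate 3 stood apart from the other libraries: with it, 8 genes passed as higher and 9 as lower in macrophages, and without it 1305 and 1294 genes did. Cell numbers also differed between the groups, with 715 to 1081 B cells per αPD-1 sample but 11 to 48 per αPD-1 + corin sample, and with 18 to 21 neutrophils against 109 to 1317.

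Within the αPD-1 samples, the summed level of the 43 genes was highest in monocytes at 7556 ± 848 CPM (SD, n = 3) and lowest in melanoma cells at 1287 ± 236 CPM. Between them stood neutrophils (5994 ± 1135 CPM), macrophages (4646 ± 399), DCs (4366 ± 279), B cells (3673 ± 834), T cells (3541 ± 66.6), fibroblasts (3036 ± 805) and NK cells (2989 ± 664). Neighbours in this order overlapped between samples, except NK cells and melanoma cells. Monocytes had the highest mean for 22 of the 43 genes, neutrophils for 7, T cells for 4, NK cells and fibroblasts for 3 each, and macrophages and B cells for 2 each, whereas melanoma cells had the lowest mean for 29.

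Single genes followed the ends of that order or departed from it. Irf7, the transcription factor that amplifies the type I interferon response, reached 300 ± 67.7 CPM in monocytes and 204 ± 9.39 CPM in DCs but 10.2 ± 3.36 CPM in melanoma cells. Slfn5, of the Schlafen family of growth regulators, had 312 ± 38.9 CPM in monocytes and no UMI in the melanoma cells of any αPD-1 sample. Bst2, which encodes tetherin, a membrane protein that holds budding viruses on the cell, was by contrast highest in fibroblasts at 459 ± 157 CPM and stood at 169 ± 11.2 CPM in B cells. Its fibroblast values overlapped the 413 ± 24.0 CPM of macrophages. Iigp1, an immunity-related GTPase, was also highest in fibroblasts, where its 249 ± 68.9 CPM did not overlap the 75.8 ± 23.0 CPM of macrophages. Igtp, of the same family, was highest in T cells at 96.6 ± 16.6 CPM, which overlapped the 95.1 ± 12.9 CPM of monocytes.

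The effect of adding corin to αPD-1 was tested in each lineage with edgeR's quasi-likelihood test on the 6 sample sums, with Benjamini-Hochberg adjustment over all genes of that lineage and a threshold of 0.05. Genes of the set passed in T cells and B cells, and in none of the other 7 lineages did a gene of the set pass. In T cells 19 of the 41 genes tested were lower and 1 was higher with corin, against 12% and 7.69% of all 9827 genes tested there. No call remained in T cells without the clusters that hold naive T cell markers (0 of 41) or in the largest T cell cluster alone (0 of 21). Few of all genes passed in these fits: 7 higher and 30 lower of 8741 in the first, and 0 higher and 2 lower of 3348 in the second. In B cells 8 of 41 were lower and 0 higher, against 1.63% and 0.497% of all genes tested. With DESeq2 and with LogNormalize clustering 0 passed there, and leaving out any 1 sample gave 0 to 3. DESeq2 tested only 4 genes of the set there, and the fits without an αPD-1 sample only 4 to 6.

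**Figure D1:**
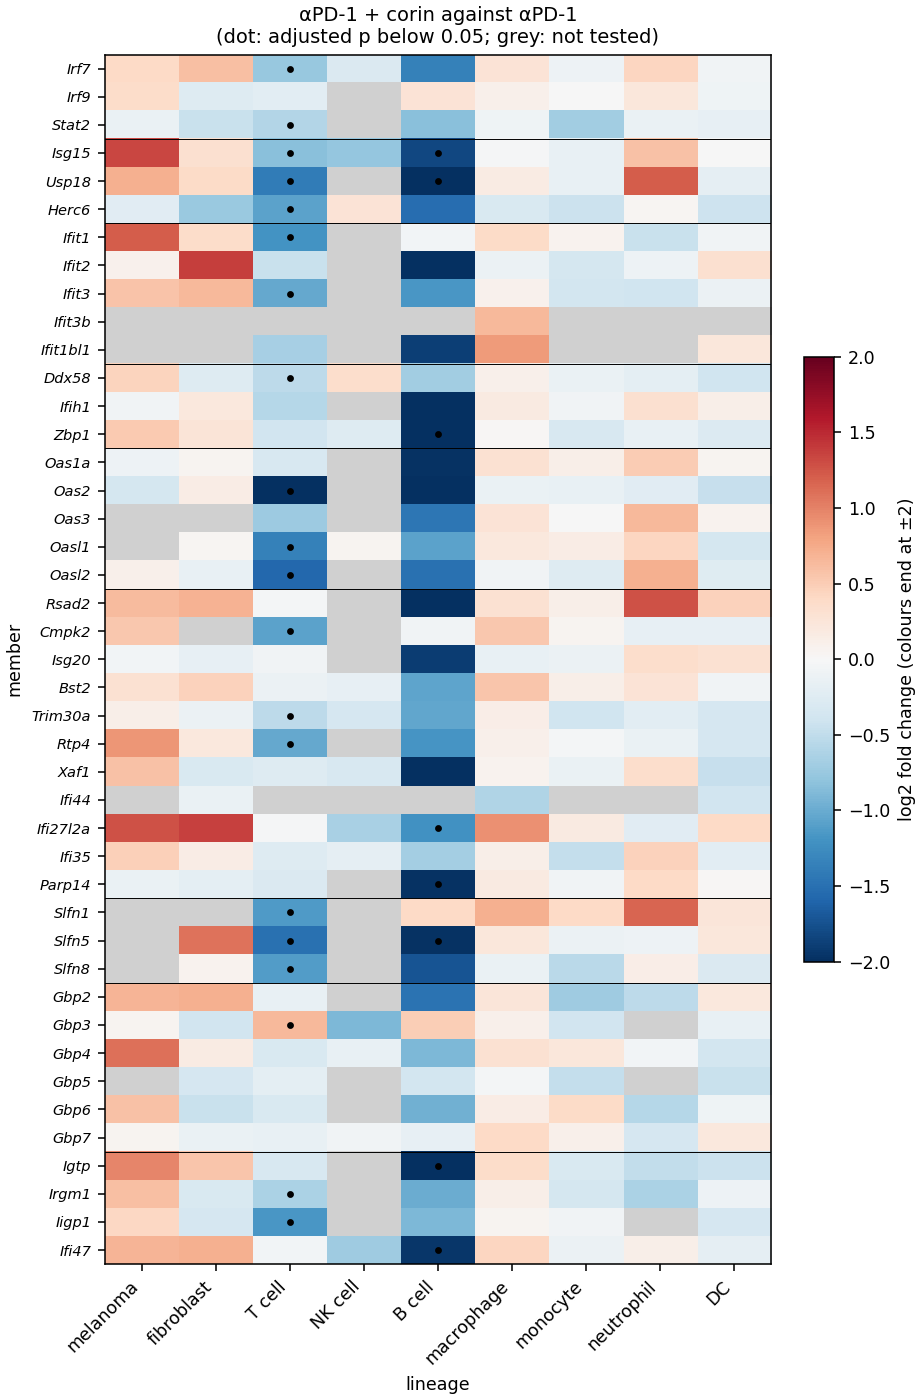
Log2 fold change (αPD-1 + corin over αPD-1) of each interferon-stimulated gene tested in each lineage. A mark shows only that a gene passed the threshold in that lineage. In T cells 40 of the 41 log2 fold changes are below 0, and in melanoma cells 27 of 34 are above it without passing.

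In T cells the 19 genes that fell came from every role except the GBP family, of which Gbp4 and Gbp6 passed as lower without corin replicate 3, and the OAS, Schlafen and ISG15 genes had the lowest medians. The summed level of the set was 3563, 3466 and 3594 CPM with αPD-1 and 3076, 2548 and 2623 CPM with corin added, a ratio of means of 0.776, and the groups did not overlap. The median log2 fold change was −0.53 for the 41 genes and 0.00 for all genes, and 97.6% of the 41 lay below 0 against 49.9% of all genes. The groups did not overlap for 23 of the 41, where this held for 36.4% of all genes tested. In this sum, fewer cells with high levels and less RNA per cell cannot be told apart.

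Among the transcription factors, Irf7 stood at 96.1, 90.7 and 71.1 CPM in the αPD-1 samples and at 55.2, 51.7 and 49.8 CPM with corin (log2 fold change −0.76, SE 0.15, adjusted p = 0.00343). Stat2, a transcription factor of type I signaling, went from 66.0, 64.7 and 55.0 CPM to 33.1, 31.5 and 49.4 CPM (−0.59, SE 0.18, adjusted p = 0.0325). Both genes were lower in every corin sample than in any αPD-1 sample. Stat2 no longer passed without any 1 of the αPD-1 samples or without corin replicate 1 or 2 (−0.63 to −0.41). Irf9, which completes that complex, had a log2 fold change of −0.21 and did not pass (adjusted p = 0.379).

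All 3 genes of the ISG15 system fell. Isg15, a ubiquitin-like protein that is attached to other proteins, had 176, 162 and 195 CPM with αPD-1 and 133, 103 and 84.7 CPM with corin added (−0.83, SE 0.15, adjusted p = 0.00221). Usp18, which removes ISG15 and restrains the type I receptor, had 42.8, 46.9 and 37.7 CPM against 24.9, 16.5 and 14.6 CPM (−1.40, SE 0.21, adjusted p = 0.000403). Herc6, the ligase that attaches ISG15 in mice, was tight within both groups, at 97.0, 94.9 and 97.7 CPM against 44.2, 45 and 47.2 CPM (adjusted p = 0.000135).

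The 3 Schlafen genes tested fell together, with a median log2 fold change of −1.13. Slfn1, first described in the control of thymocyte growth, had 93.8, 88.0 and 101 CPM against 63.5, 39.7 and 40.2 CPM (−1.13, SE 0.16, adjusted p = 0.000338). For Slfn5 the values were 61.5, 51.0 and 40.2 CPM against 24.9, 22.5 and 15.1 CPM (−1.49, SE 0.23, adjusted p = 0.000553), and for Slfn8 they were 74.7, 63.7 and 76.0 CPM against 35.9, 28.5 and 34.3 CPM (−1.12, SE 0.16, adjusted p = 0.00033). The groups did not overlap for any of the 3.

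The OAS family, whose products make a messenger that activates RNase L, had 3 of 5 genes lower and a median of −1.35, the lowest of any role. Oas2 was at 20.0, 16.8 and 19.8 CPM with αPD-1 and at 0, 5.25 and 4.15 CPM with corin added, the largest fall in the set (−2.17, SE 0.34, adjusted p = 0.00062). The OAS-like genes Oasl1 (51.5, 27.4 and 43.3 CPM against 19.3, 13.5 and 16.2 CPM; −1.35, SE 0.25, adjusted p = 0.00234) and Oasl2 (26.0, 26.0 and 29.7 CPM against 13.8, 14.2 and 6.12 CPM; −1.58, SE 0.29, adjusted p = 0.00219) were again lower in every corin sample. Oas1a and Oas3 did not pass, with log2 fold changes of −0.32 and −0.72 (adjusted p = 0.403 and 0.0709).

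Of the Ifit family, which binds foreign RNA and blocks its translation, 4 of 5 genes were tested and 2 fell. Ifit1 had 45.5, 43.5 and 30.9 CPM against 22.1, 18.7 and 16.2 CPM (−1.20, SE 0.21, adjusted p = 0.00151), and Ifit3 had 37.3, 41.1 and 35.2 CPM against 24.9, 18.0 and 17.9 CPM (−1.03, SE 0.19, adjusted p = 0.00208). Ifit2 (−0.44) and Ifit1bl1 (−0.66) did not pass, and Ifit3b was too low to be tested. Of the nucleic acid sensors, Ddx58, which encodes the RNA sensor RIG-I, fell by 0.52 on the log2 scale (adjusted p = 0.0215), and did not pass without αPD-1 replicate 1 (−0.48) or corin replicate 2 (−0.44) or 3 (−0.55). The RNA sensor Ifih1 (−0.56, adjusted p = 0.0545) and the Z-nucleic acid sensor Zbp1 (−0.38, adjusted p = 0.0536) lay just outside the threshold, although neither overlapped between the groups.

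Of the 10 other antiviral genes tested, 3 fell and their median was −0.26. Rtp4 had 58.7, 57.2 and 67.4 CPM against 38.7, 29.2 and 28.2 CPM (−1.03, SE 0.17, adjusted p = 0.000822). Trim30a fell by 0.53 (adjusted p = 0.00906) and Cmpk2, a mitochondrial nucleotide kinase, by 1.07 (adjusted p = 0.0226), the latter with overlapping groups. Trim30a did not pass without corin replicate 2 (−0.47) or 3 (−0.50), and Cmpk2 did not pass without αPD-1 replicate 2 or 3 or corin replicate 2 or 3 (−1.03 to −0.88). Bst2 had 209.9, 166 and 210.2 CPM against 202, 157 and 187 CPM (−0.12, adjusted p = 0.608), and Ifi27l2a spread from 492 to 966 CPM within the corin samples (−0.03). Parp14, Xaf1, Ifi35, Isg20 and Rsad2 had log2 fold changes from −0.28 to −0.05 and did not pass, and Ifi44 was too low to be tested.

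The GBP and IRG families, large and small GTPases that attack the vacuoles of intracellular microbes, had 10 genes tested, of which 1 rose, 2 fell and the median was −0.25, whereas 17 of the other 31 fell with a median of −0.66. In T cells Gbp3 was the only gene of the set to rise, from 31.0, 37.7 and 29.1 CPM to 44.2, 51.0 and 54.6 CPM (0.65, SE 0.17, adjusted p = 0.0137), though it did not pass without αPD-1 replicate 1 (0.61) or corin replicate 3 (0.58). Gbp2 had 55.6, 65.7 and 40.8 CPM against 41.4, 46.5 and 53.7 CPM (−0.15, adjusted p = 0.613), and Gbp4, Gbp5, Gbp6 and Gbp7 lay between −0.31 and −0.14. Without corin replicate 3, Gbp6 (−0.89, adjusted p = 0.0119) and Gbp4 (−0.67, adjusted p = 0.0339) passed as lower. Iigp1 fell from 36.9, 43.8 and 40.2 CPM to 11, 16.5 and 19.9 CPM (−1.17, SE 0.20, adjusted p = 0.00108) and Irgm1, a regulator of the other IRG proteins, fell by 0.64 (adjusted p = 0.0147), a call that was lost without αPD-1 replicate 2 (−0.54) or corin replicate 2 (−0.49). Igtp had 93.8, 114 and 81.6 CPM against 82.8, 66.7 and 84.1 CPM (−0.32, adjusted p = 0.159), with overlapping groups.

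**Figure D2:**
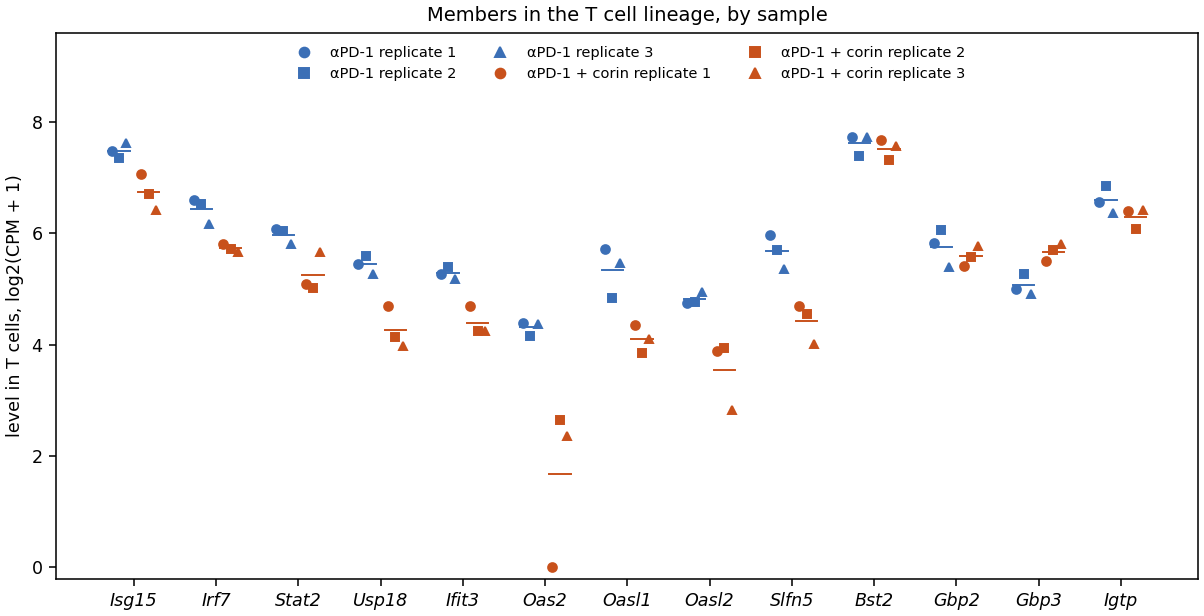
Level of interferon-stimulated genes in T cells as log2(CPM + 1), 1 point per sample, for αPD-1 and αPD-1 + corin. The Isg15 values correspond to 162 to 195 CPM for the αPD-1 samples and 84.7 to 133 CPM for the corin samples, whereas for Gbp3 the corin samples lie above the αPD-1 samples.

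Of the 15 T cell genes that fell and have a promoter entry, 9 hold GAAA-NN-GAAA and 0 hold TTCNNNGAA. Of the other 19 genes with an entry, 12 hold the first motif and 8 the second. Of the 7 GBP and IRG genes with an entry, 6 hold GAAA-NN-GAAA and 3 hold TTCNNNGAA.

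The kinds of T cells differed between the groups, and the calls changed with them. Clusters with 2 or more of the 4 naive T cell markers Lef1, Tcf7, Ccr7 and Klf2 made up 61.2%, 57.7% and 50.5% of T cells with αPD-1 and 23.4%, 23.9% and 20.6% with αPD-1 + corin. Most of these cells with corin were in the cluster led by Klra6, which reached only 2 of the markers (65, 90 and 46 cells against 29, 60 and 229). The cluster led by Dapl1, with all 4, held 278, 291 and 161 cells against 8, 9 and 13. That led by Rapgef4, with 3, held 141, 86 and 94 against 0, 3 and 3. Without all of these naive-marker clusters, that led by Klra6 included, 0 of 41 genes passed in either direction, 21 had an unadjusted p under 0.05, and the median was −0.41, while 7 of all 8741 genes were higher and 30 lower. The 5 lowest log2 fold changes were then those of Oasl2 (−1.47, adjusted p = 0.159), Oasl1 (−1.21, 0.16), Slfn5 (−1.18, 0.112), Oas2 (−1.07, 0.349) and Cmpk2 (−1.05, 0.278), so that Oas2 moved from −2.17. The lowest adjusted p was that of Iigp1 (−0.90, 0.101), and Isg15 had −0.78 (0.159). In the largest T cell cluster alone, 0 of 21 genes passed, 1 had an unadjusted p under 0.05 and the median was −0.19. Of all 3348 genes tested there 0 were higher and 2 lower, and corin replicates 1 and 2 had only 45 and 34 cells. On all T clusters, 14 of the 19 genes passed as lower in all 16 fits, with another tool, scaling, filter or clustering or with 1 sample left out, and the other 5 were Cmpk2, Ddx58, Irgm1, Stat2 and Trim30a.

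Within single clusters the summed level of the set differed by cluster as well as by treatment. The cluster led by Foxp3, Tnfrsf4 and Ccr8, genes of regulatory T cells, had the highest sums, 5759.8, 6401 and 6374 CPM with αPD-1 and 5055, 5321 and 4685 CPM with corin added. A cluster led by Prss2, Ccl5 and Gzmk, the last 2 made by effector T cells, had 3623, 3311 and 3377 CPM against 2975, 2503 and 2813 CPM. The proliferating cluster led by Hist1h2ae and Ube2c had 2629.6, 2411 and 3721 CPM against 2001, 1434 and 1941 CPM. In these 3 clusters the groups did not overlap.

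The cluster led by Klra6, which holds naive markers, had 3614, 4519 and 3149 CPM against 3437, 3004 and 3197 CPM, and its groups overlapped. The cluster led by the granzymes Gzmf, Gzmd and Gzme was low and ran the other way, with 1515, 1419 and 1097 CPM with αPD-1 and 1566 and 1711 CPM in corin replicates 2 and 3. The naive-marker cluster led by Dapl1 had 4569, 4253 and 4609 CPM with αPD-1 and reached 10 cells in only 1 corin sample, replicate 3, at 3405 CPM. No test was run within these clusters.

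**Figure D3:**
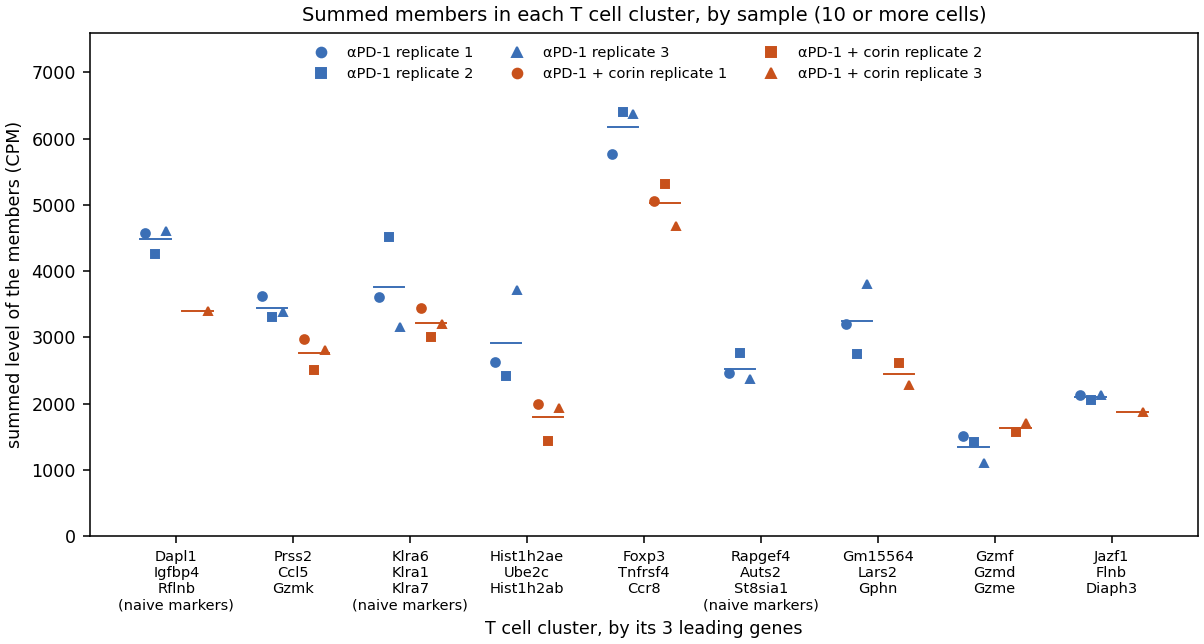
Summed CPM of the interferon-stimulated genes in each T cell cluster, 1 point per sample with at least 10 cells of that cluster. The Foxp3 cluster lies highest in both groups, from 4685 to 6401 CPM, and the Gzmf cluster lies lowest with αPD-1.

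Single cells were compared at equal depth. After each T cell was thinned to 1000 UMIs, the median cell held 3 UMIs of the set in every αPD-1 sample and 2 in every αPD-1 + corin sample. Cells with 5 or more such UMIs made up 29.6%, 28.6% and 33.7% of T cells with αPD-1 and 20.7%, 21.1% and 19.1% with corin added, and 3 to 30 cells per sample were left out as too shallow. Markers of other cells also moved in the T cell sums. The 11 B cell markers summed to 95.4 to 169.9 CPM with αPD-1 and 10.7 to 41.8 CPM with corin, at most 1.47% of their level in B cells. The 14 macrophage markers summed to 76.6 to 117 CPM and 107 to 363 CPM, and the 11 neutrophil markers to 51.8 to 64.6 CPM and 94.2 to 258 CPM. The 11 melanoma markers summed to 80.2 to 153 CPM and 51.8 to 115 CPM, and the 12 fibroblast markers to 7.78 to 24.3 CPM and 9.69 to 13.6 CPM, with Lum, Pdgfra and Pdgfrb at 0. The part of these cells in the T cell result was not tested.

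Of 62 pathway genes (interferons, receptors, kinases, STATs, other Irf genes and regulators), 38 were tested, 3 rose and 6 fell, shares near the 7.69% and 12% of all genes. Without the naive-marker clusters 0 of 37 passed in either direction, and in the largest T cell cluster 0 of 21 did, in fits where few of all genes passed, as given above. Ifng, which encodes IFN-γ, had 197, 287 and 177 CPM with αPD-1 and 185, 443 and 617 CPM with corin added (0.98, SE 0.28, adjusted p = 0.0246), with overlapping groups, and did not pass without αPD-1 replicate 1 (0.89) or 3 (0.88) or corin replicate 3 (0.61), and its log2 fold change was −0.14 in the largest T cell cluster. Of its receptor chains, Ifngr1 rose from 234, 229 and 226 CPM to 398, 351 and 295 CPM (0.57, SE 0.13, adjusted p = 0.00852), and Ifngr2 fell from 21.4, 20.5 and 16.1 CPM to 8.28, 3.00 and 2.40 CPM (−2.69, SE 0.36, adjusted p = 0.00021). Neither chain overlapped between the groups.

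Irf8, a transcription factor that IFN-γ induces, rose from 91.1, 142 and 104 CPM to 144, 238 and 228 CPM (0.90, SE 0.18, adjusted p = 0.00382). The kinase Jak1, shared by the type I and type II receptors, fell by 0.48 on the log2 scale (adjusted p = 0.0173), and Ikbke, a kinase upstream of type I interferon, fell by 1.27 (adjusted p = 0.000332). Pias1, an inhibitor of interferon signaling, fell by 0.79 (adjusted p = 0.00421), the RNA editor Adar by 0.67 (adjusted p = 0.0116) and the adaptor Traf3 by 0.55 (adjusted p = 0.0124). Jak1 lost its call without αPD-1 replicate 1 or 3 or corin replicate 2 or 3 (−0.48 to −0.42), Adar without αPD-1 replicate 1 or 3 or corin replicate 3 (−0.60 to −0.54) and Traf3 without αPD-1 replicate 1 (−0.54) or 3 (−0.46).

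In B cells the set was also lower, on far fewer molecules. Its summed level was 3228, 3157 and 4636 CPM with αPD-1 and 1364, 1969 and 1249 CPM with corin added, a ratio of means of 0.416 with no overlap. The median log2 fold change of the 41 genes tested was −1.35, or −1.21 with genes at 0 set to their bound, while the median of all genes was itself −0.19. Of the 41 genes, 26 did not overlap between the groups, against 27.2% of all genes tested. The B cells of all 3 αPD-1 + corin samples together held 165679 UMIs.

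Ifi27l2a was the member with the most UMIs behind its call: it had 502, 693 and 1134 CPM with αPD-1 and 375, 412 and 41.6 CPM with corin, the latter from 22, 32 and 1 UMIs (−1.21, SE 0.23, adjusted p = 7.44e-05). Isg15 had 107, 86.3 and 136 CPM against 68.2, 12.9 and 0 CPM, from 4, 1 and 0 UMIs (−1.82, SE 0.56, adjusted p = 0.0486), and its log2 fold change was 0.41 with LogNormalize clustering. Zbp1 had 130.4, 102 and 151 CPM against 17.1, 12.9 and 83.3 CPM, from 1, 1 and 2 UMIs (−2.36, SE 0.58, adjusted p = 0.00618). These 3 genes were lower in every αPD-1 + corin sample.

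Igtp and Usp18 had no UMI in any corin B cell sample. Igtp stood at 49.97, 43.8 and 46.6 CPM with αPD-1 and was at least 2.40-fold lower with corin, taking the limit that a count of 0 allows (3 counts over the group, or 18.1 CPM; adjusted p = 0.0238). Usp18 stood at 42, 26.4 and 58.2 CPM with αPD-1 and was at least 2.26-fold lower by the same limit (adjusted p = 0.0317). Slfn5 (−1.98, adjusted p = 0.0486), Parp14 (−1.97, adjusted p = 0.00992) and Ifi47 (−1.95, adjusted p = 0.0267) rested on at most 6 UMIs each in the corin group.

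The other transcription factors and effectors did not pass in B cells. Irf7 had 101, 109.5 and 167 CPM against 17.1, 77.2 and 41.6 CPM (−1.35, adjusted p = 0.112). Bst2 had 173, 156 and 177 CPM against 51.2, 103 and 83.3 CPM (−1.06, adjusted p = 0.142), and Stat2 had 139.5, 123 and 167 CPM against 68.2, 116 and 0 CPM (−0.84, adjusted p = 0.313). For all 3 the corin samples lay below the αPD-1 samples. Gbp2 (33.5, 34.2 and 37.4 CPM against 17.1, 0 and 41.6 CPM) and Ifit3 (40.2, 23.2 and 59.1 CPM against 17.1, 25.7 and 0 CPM) overlapped between the groups.

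Of the 37 pathway genes tested in B cells 2 fell and 0 rose, against the 1.63% and 0.497% of all genes given above. Ptpn6, a phosphatase that restrains JAK signaling, was 1 of them (−1.27, SE 0.31, adjusted p = 0.00693). DESeq2 called 0 members in either direction among the 4 it could test in B cells. Leaving out any 1 of the 6 samples gave 0 (αPD-1 replicate 3) to 3 genes lower, with none of the 8 genes called in all 6 of those fits. Without αPD-1 replicate 1, 2 or 3, however, the filter left only 5, 6 and 4 genes of the set, so that most of the 8 were not tested there. Ptpn6 lost its call without corin replicate 1 or αPD-1 replicate 1 (adjusted p = 0.312 and 0.0625). Neutrophil markers summed to 872, 1026 and 0 CPM in the 3 corin B cell samples against 44.2 to 48.7 CPM with αPD-1, and T cell markers to 16.5 to 52.5 CPM against 164 to 204 CPM. Their part in the B cell result was not tested.

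In macrophages 0 of 43 genes passed (0.0682% of all genes were called higher and 0.0768% lower), 2 had an unadjusted p under 0.05 and DESeq2 called 0. The summed level was nevertheless higher in every corin sample, at 4186, 4896 and 4856 CPM against 6122, 5873 and 5696 CPM. A large part of it in corin replicates 1 and 2 came from Ifi27l2a, whose values are given below. Without this gene the summed levels of the groups overlap. Neutrophil markers in these sums went from 191 to 259 CPM to 334 to 424 CPM and B cell markers from 149 to 303 CPM to 37.8 to 57.8 CPM, and the macrophage cluster led by Ppbp, Ccl24 and Arg1 held 14, 4 and 13 cells with αPD-1 and 1162, 281 and 6 with corin. Their part in the summed level was not tested. Ifi27l2a had 629, 857 and 961 CPM against 2553, 1352 and 683 CPM (0.91, adjusted p = 0.275). Bst2 was higher in every corin sample, at 435, 388 and 415 CPM against 764, 574 and 489 CPM (0.56, adjusted p = 0.185), as was Irf7, at 145, 178 and 186 CPM against 202, 212 and 204 CPM (0.28, adjusted p = 0.305). Of the 43 genes 4 did not overlap, against 22.8% of all genes.

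The remaining anchor genes overlapped between the groups in macrophages. Isg15 had 356, 428 and 472 CPM against 289, 449 and 496 CPM, and Stat2 had 129.5, 128 and 143 CPM against 107, 128 and 142 CPM. Ifit3 had 38.1, 50.3 and 50.1 CPM against 36.9, 51.6 and 59.7 CPM. Gbp2 (112, 176 and 112 CPM against 51.5, 159 and 266 CPM) and Igtp (34.7, 46.2 and 34.7 CPM against 29.2, 51.7 and 70.2 CPM) had their lowest and their highest value of all 6 samples among the corin samples. Without αPD-1 + corin replicate 3, Oas1a (0.44), Bst2 (0.70), Slfn1 (0.89) and Ifi27l2a (1.26) passed as higher and Herc6 (−0.77) as lower. These are 4 and 1 of 43 genes, against 1305 and 1294 of all 11900 genes tested in that fit.

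In monocytes 0 of 40 genes passed (0.801% of all genes were called higher and 0.638% lower), 5 had an unadjusted p under 0.05 and DESeq2 called 0 of 37. Stat2 had 208, 220.1 and 152 CPM against 87.2, 98.4 and 162 CPM (−0.70, adjusted p = 0.135) and Gbp2 had 433, 602 and 271 CPM against 119, 212 and 446 CPM (−0.71, adjusted p = 0.366). For both, corin replicates 1 and 2 lay below every αPD-1 sample and replicate 3 did not. Of the 40 genes 1 did not overlap, against 21.1% of all genes. Without replicate 3, Iigp1 (−1.68), Gbp2 (−1.48), Gbp5 (−1.41), Stat2 (−1.08), Igtp (−1.06) and Slfn8 (−0.83) passed as lower. These are 6 of 41 genes, against 217 of all 7638 genes tested in that fit.

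Isg15 in monocytes had 606, 718 and 529.8 CPM against 481, 564 and 618 CPM, and Irf7 had 330.1, 347 and 222 CPM against 221, 259 and 351 CPM. Bst2 had 349.6, 375 and 326 CPM against 360.1, 462 and 333 CPM. All of these overlapped, as did Ifit3 (85.6, 66.5 and 40.4 CPM against 49.3, 56.7 and 44.0 CPM) and Igtp (92.9, 109 and 83.4 CPM against 44.2, 47.7 and 123 CPM). Jak1 was the only pathway gene to pass, falling from 348, 313 and 354 CPM to 229, 191 and 245 CPM (−0.59, SE 0.14, adjusted p = 0.0482), and it passed in only 1 of the 6 fits that left out a sample, that without corin replicate 3. Macrophage markers summed to 481 to 683 CPM in the αPD-1 monocytes and 653 to 1604 CPM with corin, and neutrophil markers, with no overlap, to 487 to 591 CPM and 906 to 1575 CPM. Their part was not tested.

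In melanoma cells, the tumor cells themselves, 0 of 34 genes passed by edgeR (0% of all genes were called in either direction), and 2 had an unadjusted p under 0.05. DESeq2 called 1 of 42 higher, Isg15, against 2 higher and 5 lower of all 14799 genes tested in that fit. Isg15 had 48.2, 32.4 and 78.6 CPM with αPD-1 and 154, 105 and 164 CPM with corin added, all above the αPD-1 samples (1.34, SE 0.27, adjusted p = 0.403). Of the 34 genes, 27 had a log2 fold change above 0, with a median of 0.46, and 2 did not overlap, against 12.9% of all genes. Without corin replicate 3 the median was −0.31 and 12 of 33 lay above 0. Bst2 (489, 402 and 261 CPM against 249, 408 and 765 CPM), Stat2 (24.1, 47.4 and 22.8 CPM against 12.2, 20.7 and 46.6 CPM), Irf7 (13.9, 7.49 and 9.11 CPM against 8.29, 15.7 and 18.8 CPM) and Ifit3 (16.5, 15.0 and 29.6 CPM against 18.5, 26.9 and 49.2 CPM) overlapped. In these cells neutrophil markers summed to 5.35 to 10.6 CPM with αPD-1 and 16.3 to 303 CPM with corin, and B cell markers to 17.7 to 223 CPM and 7.39 to 14.7 CPM, both without overlap. Macrophage markers summed to 34.2 to 406 CPM and 60.1 to 237 CPM, and the part of these cells was not tested.

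In fibroblasts 0 of 38 genes passed (0.606% of all genes were called higher and 0.337% lower), and 2 had an unadjusted p under 0.05. DESeq2 called 2 of 20 higher, Ifi27l2a and Slfn5, against 172 higher and 109 lower of all 3286 genes tested in that fit. Ifi27l2a had 183, 309 and 211 CPM against 494, 471 and 847 CPM (SE 0.33, adjusted p = 0.0711) and Slfn5 had 89.0, 148 and 180.2 CPM against 220.1, 257 and 402 CPM (1.08, adjusted p = 0.133). In both the corin samples lay above the αPD-1 samples, as they did for Isg15, at 249.7, 255 and 248 CPM against 264, 362 and 317 CPM (0.32, adjusted p = 0.487). Irf7 (68.1, 113 and 65.9 CPM against 108, 73.0 and 189 CPM), Bst2 (356, 639.9 and 382 CPM against 564, 629 and 696 CPM) and Stat2 (147, 167 and 98.9 CPM against 60.4, 83.0 and 161 CPM) overlapped. So did Ifit3 (12.2, 43.0 and 19.8 CPM against 26.5, 58.7 and 32.2 CPM), Gbp2 (34.9, 116 and 61.5 CPM against 28.4, 153 and 165 CPM) and Igtp (36.7, 88.7 and 41.7 CPM against 27.5, 81.5 and 138 CPM). Of the 38 genes 3 did not overlap, against 23.9% of all genes. Without corin replicate 3, Ifi27l2a (1.06) passed as higher and Gbp6 (−1.83) as lower, against 224 and 236 of all 7626 genes. B cell markers in the fibroblast sums went from 1384 to 1673 CPM with αPD-1 to 656 to 1169 CPM with corin, without overlap. Neutrophil markers summed to 55.7 to 124 CPM and 72.5 to 593 CPM. Their part was not tested.

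In neutrophils 0 of 37 genes passed (0.294% of all genes were called higher and 0.662% lower), 3 had an unadjusted p under 0.05 and DESeq2 called 0 of 41. Rsad2, which encodes the antiviral enzyme viperin, had 171, 333 and 292 CPM against 293, 903 and 699 CPM (1.28, adjusted p = 0.201). Isg15 had 364, 619.7 and 682 CPM against 501, 805 and 1189 CPM (0.59, adjusted p = 0.5), and Irf7 had 85.7, 166 and 211 CPM against 206, 190.3 and 204 CPM. Bst2 had 439, 242 and 211 CPM against 414, 345 and 348 CPM, and Stat2 had 150.05, 121 and 162 CPM against 119, 135 and 144 CPM. Ifit3 had 42.9, 136 and 48.7 CPM against 43.2, 52.6 and 87.0 CPM, Gbp2 had 161, 529 and 373 CPM against 83.8, 174 and 500.5 CPM, and Igtp had 85.7, 75.6 and 114 CPM against 34.0, 61.7 and 125 CPM. All 8 genes overlapped. Of the 37 genes 2 did not overlap, against 20.1% of all genes. Without αPD-1 + corin replicate 1, Rsad2 passed as higher (1.61), 1 of 22 genes of the set, against 16 of all 1955 genes. The αPD-1 values rest on 18 to 21 cells per sample. In these sums B cell markers went from 980 to 3677 CPM with αPD-1 to 28.4 to 244 CPM with corin. Macrophage markers went from 590 to 1160 CPM to 1336 to 5140 CPM, and neither overlapped. T cell markers summed to 298 to 970 CPM and 473 to 1944 CPM. Their part in the neutrophil values was not tested.

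In DCs 0 of 42 genes passed (0.0455% of all genes were called higher and 0.466% lower), 1 had an unadjusted p under 0.05 and DESeq2 called 0. Isg15 had 387, 355 and 390.1 CPM against 290.4, 575 and 263 CPM, and Irf7 had 214, 199 and 198 CPM against 154, 288 and 142 CPM. For both, corin replicate 2 was the highest and replicates 1 and 3 the lowest of the 6 samples. Bst2 had 409, 402 and 347 CPM against 372, 375 and 354 CPM, Stat2 had 169, 124 and 161 CPM against 117, 149.7 and 140.2 CPM, and Ifit3 had 30.9, 44.2 and 43.1 CPM against 22.0, 70.2 and 20.6 CPM. Gbp2 (127, 149 and 96.6 CPM against 71.3, 196 and 167 CPM) and Igtp (70.5, 71.8 and 49.2 CPM against 20.3, 49.1 and 72.7 CPM) were lowest in corin replicate 1. All 7 genes overlapped between the groups. Of the 42 genes 2 did not overlap, against 17.2% of all genes. Without corin replicate 3, Ifi27l2a passed as higher (0.61), 1 of 42, against 336 of all 8913 genes tested in that fit. B cell markers in the DC sums went from 678 to 791 CPM with αPD-1 to 34.3 to 117 CPM with corin, without overlap. Neutrophil markers summed to 142 to 196 CPM and 194 to 716 CPM. Their part was not tested.

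In NK cells only 15 genes were abundant enough to be tested, and 0 passed (0.522% of all genes were called higher and 0.661% lower), with 3 at an unadjusted p under 0.05 and none that DESeq2 could test. Isg15 had 165, 246 and 86.5 CPM against 84.1, 115 and 105 CPM (−0.78, adjusted p = 0.263), and Ifi47, an immunity-related GTPase, had 215, 399 and 238 CPM against 72.1, 161 and 235 CPM (−0.71, adjusted p = 0.23). Irf7 had 93.0, 136 and 64.9 CPM against 84.1, 84.5 and 87.8 CPM, and Bst2 had 179, 173 and 195 CPM against 180.2, 215 and 123 CPM. Isg15, Irf7 and Bst2 overlapped between the groups, and so did Ifi47, through corin replicate 3 alone. Stat2 (57.2, 41.9 and 32.5 CPM against 24.0, 61.4 and 21.1 CPM), Ifit3 (7.16, 99.6 and 21.6 CPM against 0, 7.68 and 10.5 CPM), Gbp2 (50.1, 68.2 and 10.8 CPM against 24.0, 46.1 and 38.7 CPM) and Igtp (71.6, 57.7 and 54.1 CPM against 48.1, 30.7 and 77.3 CPM) were too low to be tested.

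The GBP and IRG genes spread widely between the αPD-1 + corin samples. Summed over 10 genes, they had 435, 265 and 318 CPM in αPD-1 melanoma cells and 55.8, 362 and 1146 CPM with corin added. In macrophages the sums were 584, 770.5 and 554 CPM against 343, 744 and 1172 CPM, and in fibroblasts 545, 1022 and 536 CPM against 253, 681 and 1201 CPM. In each of the 9 lineages corin replicate 1 was the lowest and replicate 3 the highest of the corin samples. For the other 33 genes of the set this held for the lowest in 4 and for the highest in 4 of the 9 lineages.

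The ratio of the highest to the lowest corin sample ran from 1.37 to 20.5 over the lineages for the GBP and IRG genes and from 1.15 to 2.15 for the other genes. Between the αPD-1 samples the ratios were 1.25 to 1.91 and 1.10 to 1.53. In melanoma cells Igtp had 52.0, 17.5 and 35.3 CPM against 5.81, 48.7 and 165 CPM, and Gbp2 had 33, 29.9 and 61.5 CPM against 6.08, 52.1 and 150.3 CPM. Corin replicate 1 was the lowest and replicate 3 the highest of all 6 samples for 18 of 34 genes of the set in melanoma cells, against 2.08% of all genes, for 16 of 43 in macrophages, against 6.12%, and for 0 of 41 in T cells, against 4.17%. This spread was noticed in the values and is given as a description.

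Ifng differed between the same samples. Summed over the 9 lineages it had 49.2, 71.2 and 38.1 CPM with αPD-1 and 7.88, 56.0 and 176 CPM with corin added, so that corin replicate 1 was again the lowest and replicate 3 the highest of the 6. T cells held 75.7%, 91.1% and 67.5% of its UMIs with αPD-1 and 26.3%, 56.6% and 85.0% with corin, and T cell numbers were 791, 810 and 596 against 158, 301 and 1188. The part of Ifng and of T cell number in the spread of the GBP and IRG genes was not tested.

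**Figure D4:**
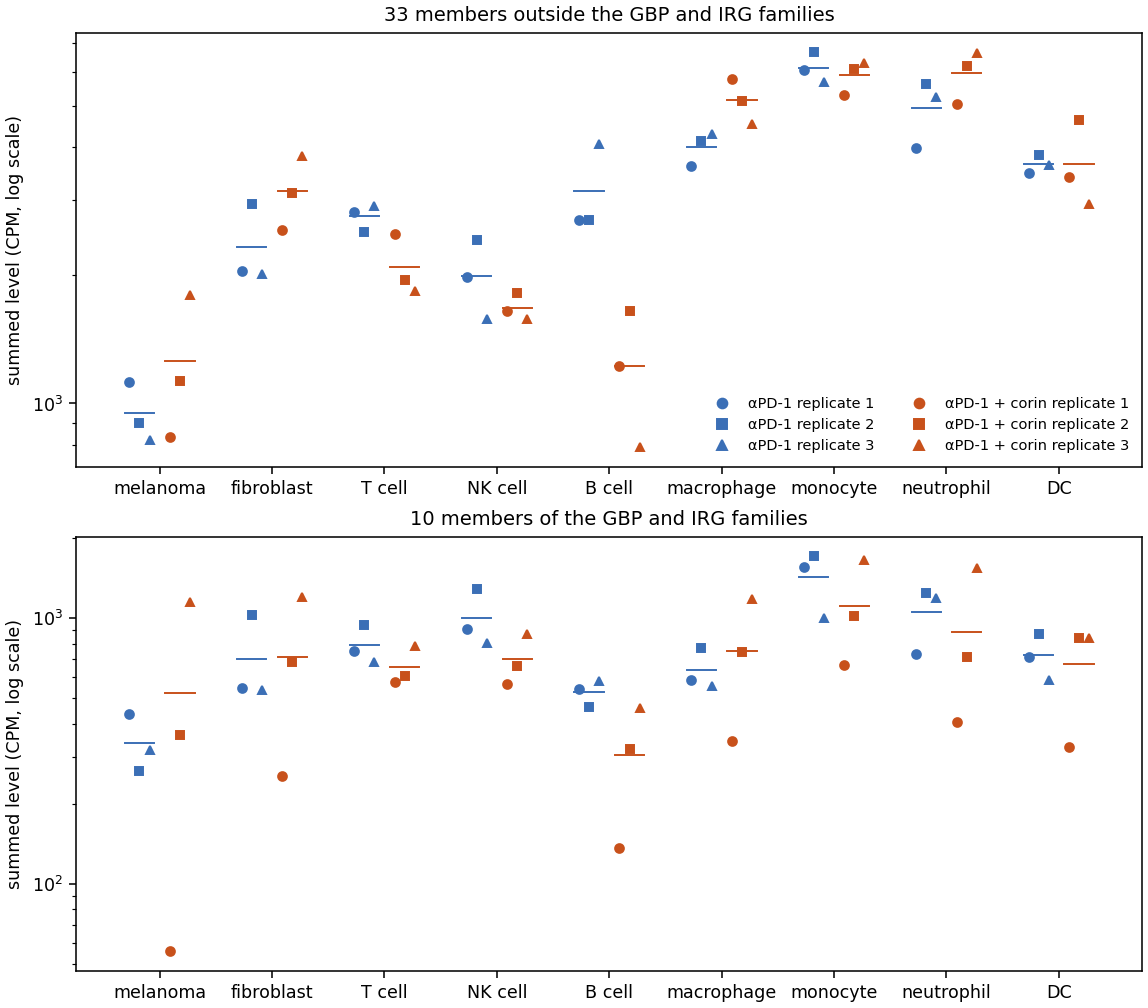
Summed CPM of the interferon-stimulated genes per sample and lineage, 1 point per sample, for αPD-1 and αPD-1 + corin. The top panel holds the 33 genes outside the GBP and IRG families and the bottom panel the 10 genes of those families. In the top panel the groups do not overlap in T cells and B cells (lower with corin) and in macrophages (higher with corin). In the bottom panel they overlap in T cells and macrophages. Monocytes have the highest mean with αPD-1 in both panels.

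A call in 1 lineage and not in another does not show that they differ, and so the difference in response from macrophages was tested in 1 fit of all lineages with sample as a block. In T cells 6 of 43 genes had a lower log2 fold change than in macrophages, against 1.51% of all 12607 genes called in either direction. These were Slfn1 (a difference in log2 fold change of −1.75, SE 0.34, adjusted p = 0.00206), Oas2 (−2.05, SE 0.44, adjusted p = 0.00574), Slfn5 (−1.73, SE 0.38, adjusted p = 0.00765), Ifit1 (−1.60, SE 0.38, adjusted p = 0.0135), Oasl1 (−1.63, SE 0.41, adjusted p = 0.0224) and Oasl2 (−1.62, SE 0.42, adjusted p = 0.0295). In B cells 1 of 43 did, Ifi27l2a (−2.39, SE 0.50, adjusted p = 0.0134), against 0.674% of all genes. The number in T cells was 0 without αPD-1 replicate 1 and 2 to 9 without any other sample. Of all genes, 46 of 13488 were called in the first of these fits and 77 to 166 in the others, against 190 with all samples. In the other 6 lineages 0 of 43 genes differed from macrophages by edgeR, where 0.293% of all genes did in fibroblasts, 0.135% in monocytes, 0.127% in neutrophils, 0.0714% in DCs, 0.0159% in melanoma cells and 0% in NK cells. Without αPD-1 + corin replicate 3, 1 gene was higher and 1 lower in melanoma cells, where 23 of all 13036 genes were called.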

How the data were processed

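Single-cell RNA-Seq (10x Genomics 5' kit) of 6 CD45+ tumor samples was used, 3 with αPD-1 and 3 with αPD-1 + corin, grouped by the GEO labels. The authors deposited counts: whole UMI counts per gene and barcode, not normalized, from Cell Ranger 8.0 on GRCm39 per the submitters' processing notes. Of 52899 barcodes, 28865 cells with 600 to 4000 genes, at most 10% mitochondrial UMIs and no doublet call were kept. Doublets (2002 barcodes) were called with Scrublet at 0.4% per 1000 barcodes. Cells were clustered with Seurat 5.3.0 (SCTransform, sctransform 0.4.2, resolution 0.8, without interferon genes), and the T and NK cells were clustered again.

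A cluster was named for a class with at least 3 markers detected in at least 10% of its cells at 1.5 times the other clusters' mean level (pseudocount 10 CPM). Where several classes passed, the one with most markers among its top 10 genes was taken, and clusters 5, 20 and 22 (macrophage, macrophage, melanoma) had 0 there. Of the T and NK clusters, 1 with Ncr1 and more NK than T cell markers above the other T and NK clusters was named NK, those with 3 or more markers of another lineage were left out as mixed, and the rest were named T cells, each with 10 to 12 of 12 T cell markers detected, at least 10 of them at 1.5 times the level of the clusters of other cells. These thresholds were set after the data were seen. In all 3816 cells were outside the 9 lineages and left out. Of these 2706 were in clusters of mixed identity, and the others were in clusters named plasmacytoid DC (501 cells), plasma cell or endothelial. UMIs were summed per sample and lineage, and CPM use TMM library sizes within each lineage, so that levels set across lineages are not on 1 scale. Tests used edgeR 4.0.16 (quasi-likelihood, filterByExpr, Benjamini-Hochberg, threshold 0.05) where each sample had at least 10 cells. Alternatives used DESeq2 1.42.0, RLE size factors, no filter, a replicate block, samples left out, LogNormalize, other gene limits (lower limit 200, or no upper limit), resolution 1.2, the largest cluster, and cells with 2 or more UMIs of another lineage's markers left out. T cells without naive-marker clusters, and the 4 naive markers, were added after the data were seen.

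In a test on simulated data, where 200 genes differed 4-fold, the edgeR step recovered 190 in macrophages (23 false calls among 11725 genes), 196 in T cells (26 among 9827) and 169 in neutrophils (8 among 4078). Genes named were Isg15, Irf7, Ifit3, Bst2, Stat2, Gbp2, Igtp, up to 5 with the largest rise and fall among those past the threshold in a lineage, and pathway genes past it (1 pathway gene is not reported here), and further members were named by role after their values were seen. The 45 genes, the role and pathway lists and the markers were chosen with earlier results of these data known. Intervals and floors cover counting error only. Promoters came from RefSeq (GRCm38.p6). Tables ran under R 4.3.3 and Python 3.11.15.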

Additional observations from a re-analysis of the deposited data

Results flagged for a closer look

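In 7 cases the response of an interferon-stimulated gene to corin differed between a lineage and macrophages by a test of the difference itself. In T cells the differences in log2 fold change were −1.75 for Slfn1 (−1.13 in T cells and 0.70 in macrophages), −2.05 for Oas2 (−2.17 and −0.13), −1.73 for Slfn5 (−1.49 and 0.23), −1.60 for Ifit1 (−1.20 and 0.39), −1.63 for Oasl1 (−1.35 and 0.21) and −1.62 for Oasl2 (−1.58 and −0.07). In B cells the difference was −2.39 for Ifi27l2a (−1.21 in B cells and 0.91 in macrophages). The difference between lineages was not tested without the T cell clusters that hold naive markers.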

How the results depend on the processing

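In T cells 14 to 21 genes of the set were lower under the settings that kept all T clusters, against 19, and 0 were lower in the largest cluster alone and without the naive-marker clusters. Of all genes, 2 of 3348 and 30 of 8741 were lower in those fits. The 1 higher gene was lost with DESeq2, in the largest cluster, without the naive-marker clusters and with no upper limit on genes (0 in each). The 8 lower genes in B cells became 2 with the replicate block, 2 at resolution 1.2, 5 with no upper limit, 5 without cells holding other lineages' UMIs, and 0 with DESeq2 (4 genes tested) and with LogNormalize (41 tested). Leaving out an αPD-1 sample left only 4 to 6 genes of the set to test in B cells. With no filter on low counts, more genes of the set were higher in melanoma cells (4), fibroblasts (3), macrophages (3) and neutrophils (2) and lower in monocytes (2), where the count had been 0. Over all genes these fits called as higher 41 of 19283, 349 of 19761, 537 of 22094 and 192 of 19844, in that order. In monocytes 225 of 16268 were lower. DESeq2 called 1 higher in melanoma cells and 2 in fibroblasts, and a lower limit of 200 genes gave 1 in fibroblasts. Over all genes the higher calls were 2 of 14799, 172 of 3286 and 96 of 6968, in that order. For pathway genes, no filter gave 1 lower in melanoma cells, 1 higher in fibroblasts, 5 higher in T cells, 1 higher and 1 lower in macrophages, 1 higher and 2 lower in monocytes and 2 higher in DCs, DESeq2 gave 1 lower in fibroblasts and 1 higher in macrophages, and the replicate block gave 0 lower in monocytes. Over all genes, no filter called 942 of 19274 higher in T cells, 224 of 16268 higher in monocytes and 316 of 18595 higher in DCs. It called 55 of 19283 lower in melanoma cells and 316 of 22094 lower in macrophages. DESeq2 called 109 of 3286 lower in fibroblasts and 142 of 13524 higher in macrophages. Leaving out 1 sample at a time gave 16 to 19 lower and 0 to 1 higher in T cells, 0 to 3 lower in B cells, 0 to 4 higher and 0 to 1 lower in macrophages, 0 to 6 lower in monocytes, 0 to 1 higher and 0 to 1 lower in fibroblasts, and 0 to 1 higher in neutrophils and in DCs. For pathway genes it gave 2 to 4 higher and 3 to 7 lower in T cells, 0 to 2 lower in B cells, 0 to 6 higher and 0 to 2 lower in macrophages, 0 to 1 higher and 0 to 4 lower in monocytes, 0 to 2 lower in fibroblasts and 0 to 3 higher in DCs. In T cells 243 to 766 of all genes were higher and 670 to 1209 lower. For both lists, the highest counts in macrophages, monocytes, fibroblasts and DCs came without αPD-1 + corin replicate 3. That fit called 1305 higher and 1294 lower of 11900 genes in macrophages and 229 higher and 217 lower of 7638 in monocytes. It called 224 higher and 236 lower of 7626 in fibroblasts and 336 higher of 8913 in DCs. The genes that differed from macrophages numbered 0 to 9 in T cells, 0 to 2 in B cells and 0 to 1 in each direction in melanoma cells. Over all genes these fits called 46 to 166 in T cells, 6 to 72 in B cells and 1 to 23 in melanoma cells. The log2 fold change of Ifng in T cells reversed to −0.14 in the largest cluster, and that of Isg15 in B cells to 0.41 with LogNormalize. The cause was not tested for any of these. Samples with the same replicate number did not deviate together in every pair, so the numbers do not pair the samples, and the replicate block gave 18 lower genes in T cells. LogNormalize and leaving out cells with other lineages' UMIs gave no neutrophil value, because a sample had under 10 cells. Depth limited NK cells (15 genes tested), neutrophils with αPD-1 and B cells with corin.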

Other observations

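Type I interferons had few UMIs in the 9 lineages. These leave out a cluster of 501 cells named plasmacytoid DC, whose interferon UMIs were not counted. Ifnb1 had 8.01, 3.64 and 2.51 CPM over all 9 lineages with αPD-1 (93, 47 and 28 UMIs) and 4.603, 12.8 and 4.77 CPM with corin added (149, 238 and 90 UMIs), and the groups overlapped. Ifna4 had 27 UMIs in αPD-1 + corin replicate 2 and 0 or 1 in each of the other 5 samples. Among the corin samples, Isg15 and Irf7 were highest in replicate 2 in DCs but in replicate 3 in monocytes. Whether Ifna4 had a part in either was not tested. Ifng, the type II interferon, had 571, 919 and 425 UMIs with αPD-1 and 255, 1045 and 3323 UMIs with corin added, from unequal totals, of which NK cells held 13.5%, 5.22% and 13.9% and 10.6%, 4.88% and 4.45%.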
